A study of Mus musculus with 9 samples.

Results

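The genes described here encode voltage-gated sodium, calcium and potassium channels and their subunits. They are the 138 gene symbols, of 36410 rows in the gene count table, that begin with Kcn, Cacna, Cacnb or Cacng or that consist of Scn, a number and the letter a or b. The prefix reaches further than the name voltage-gated, since it also takes in 15 inward rectifiers, 14 2-pore leak channels, calcium- and sodium-activated potassium channels and 4 non-coding transcripts. Ribosome footprints were counted in 3 libraries from each of 3 immortalized striatal lines of mouse strain C57/BL6, as the labels give it. In the control line, STHdhQ7/Q7, both Htt alleles encode 7 glutamines. In STHdhQ7/Q111 cells (HD-het) 1 of them was replaced by a knock-in allele with 111 glutamines, and in STHdhQ111/Q111 cells (HD-homo) both were. All cells received cycloheximide for 10 min, and footprints of 26 to 32 nt came from 80S monosomes. Each genotype was 1 cell line grown in 3 rounds of culture, so an effect of the Htt alleles and another difference between the lines cannot be told apart. A footprint count follows both the amount of an mRNA and the ribosomes on it, and fewer cells with a transcript cannot be told apart from fewer footprints per cell.

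Voltage-gated channels open when the membrane depolarises. Their pore is built by a large α subunit, which for sodium and calcium channels is a single long protein and for potassium channels a tetramer, and smaller auxiliary subunits set how much channel reaches the surface and how fast it opens and inactivates. Sodium channels start the action potential, calcium channels couple it to secretion, contraction and transcription, and potassium channels end it. In the adult striatum, inward rectifiers hold projection neurons at a negative resting potential, and A-type and M-type potassium channels shape their firing.

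Library totals ran from 22504543 to 41888701 counts, and channel genes took 0.0109% to 0.0180% of them. Levels are given below as CPM, the counts per 1000000 of the library total after TMM scaling, where 3 counts, the floor used for bounds, were worth 0.0714 to 0.142 CPM. The labels call the cells striatal. Of 12 markers of striatal projection neurons, 3 reached a mean of 1 CPM in each line, and Drd1 and Drd2 had a count of 0 in all 9 libraries. Ppp1r1b and Foxp1 reached it in every line, Penk in control and HD-homo cells and Pde10a in HD-het cells. The summed level was 44.8 to 51.3 CPM in control libraries, 48.2 to 51.9 in HD-het libraries and 68.2 to 75.3 in HD-homo libraries. Most of that sum was Foxp1, with a mean of 33.4 CPM for control, 43.1 for HD-het and 56.9 for HD-homo. Ppp1r1b did not rise with it, at 12.04, 5.18 and 10.5 CPM in the same order. Penk was highest in HD-homo cells, while Pde10a and Rgs9 were lower there than in control cells. Of 8 general neuronal markers, 4 reached a mean of 1 CPM in control cells, 3 in HD-het cells and 2 in HD-homo cells, led by Tubb3 and Map2, while Snap25 and Syt1 had at most 3 counts in any line. Their summed level was 153 to 159.7 CPM in control libraries, 135 to 150.1 in HD-het libraries and 142 to 153 in HD-homo libraries. In contrast, all 7 markers of smooth muscle and mesenchyme exceeded 1 CPM in every line. The sum of these 7 was 6648 to 9292 CPM in control libraries, 27814 to 29447 in HD-het libraries and 5345 to 6821 in HD-homo libraries, and that of 5 neural progenitor markers was 383 to 533, 1114 to 1248 and 11.8 to 13.2 CPM. The progenitor ranges of the lines did not overlap. For smooth muscle and mesenchyme, HD-het libraries stood apart, while the control and HD-homo ranges overlapped. Not every marker followed its sum. The part of either list in the channel results was not tested. Htt itself lay at 28.7 ± 1.07 CPM in control cells, 20.3 ± 0.818 in HD-het cells and 6.62 ± 0.971 in HD-homo cells (mean ± SD, n = 3, as for all such values below).

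Most channel genes had few or no footprints. In the 9 libraries, 39 of the 138 rows had no count, 64 had counts too low for edgeR's default filter, and 35 passed the filter and entered edgeR's quasi-likelihood test over 12678 genes. Of these 35, 13 were at or above the CPM of 10 counts in a library of median size in all libraries of only 1 line, and such a gene passed the filter through the line in which it is high, so the counts below describe the 35 and are not evidence about channel genes. Against control, 16 of the 35 were higher and 10 lower in HD-het cells at an adjusted p under 0.05, 26 in all, where 31.0% of all tested genes were higher and 29.1% lower, 60.1% in all. In HD-homo cells 13 were higher and 14 lower, 27 in all, against 23.3% and 22.3%, or 45.7%, of all tested genes. Between the mutant lines, 14 stood higher and 15 lower in HD-homo cells, 29 in all, against 34.6% and 32.8%, or 67.5%, of all tested genes. The 3 libraries of each line did not overlap for 28, 27 and 30 of the 35 in the same order of comparisons, where 71.2%, 55.5% and 69.5% of all tested genes did not overlap. Only Kcna6 did not differ among the 3 lines, and 78.4% of all tested genes differed. The comparisons share libraries and are not independent of each other. The median log2 fold change of the 35 was 1.05 for HD-het and -0.37 for HD-homo against control, and 0.66 and -0.08 with genes near 0 counts set to their bound, their counting ratio or, where both lines were at the floor, to no change. Over all tested genes it was 0.02 in both. Values written below as a number with an SE and an adjusted p are fitted log2 fold changes from this test, and negative ones are lower in the first-named line. Leaving out 1 library moved none of the counts of called channel genes by more than 1.5 times. More genes then passed the filter, and some single calls were lost, as given below.

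**Figure D1:**
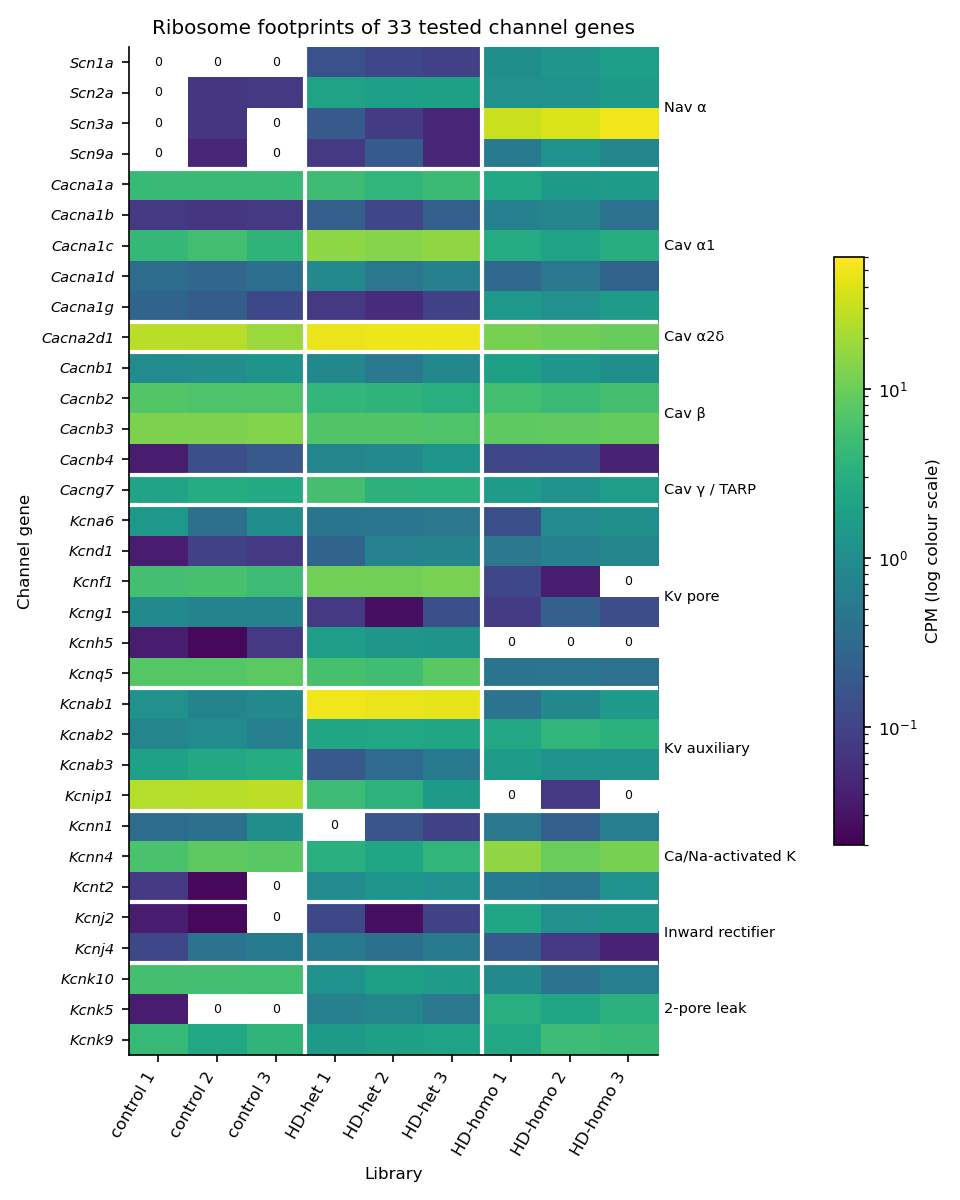
Colour gives the CPM of 33 of the 35 tested channel genes (rows, grouped by family) in each of the 9 libraries (columns) on a log colour scale, and a 0 marks a library without a count. Libraries of 1 line look alike, and single genes such as Scn3a, Kcnab1, Kcnip1 and Kcnf1 are bright in 1 or 2 lines and dark or at 0 in another.

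Per length, an auxiliary potassium channel subunit was the most heavily occupied channel gene in 2 of the 3 lines, and a different one in each. Levels between genes are compared here as CPM per kb of coding length. In control cells Kcnip1, a calcium-binding subunit of A-type potassium channels, stood first at 35.03 ± 1.75 CPM per kb, followed by Cacnb3 at 8.71 ± 0.383 and Cacna2d1 at 7.08 ± 1.39, whose difference was no larger than their SDs together. In HD-het cells Kcnab1, a β subunit that gives Shaker-type channels fast inactivation, stood first at 37.8 ± 1.87 CPM per kb, followed by Cacna2d1 at 14.7 ± 0.429 and Kcnf1 at 7.45 ± 0.454. HD-homo cells had neither of the 2 leaders at a comparable level, with Kcnip1 at 0.0345 ± 0.0598 and Kcnab1 at 0.720 ± 0.418 CPM per kb, and the highest level was that of Kcnn4, the intermediate-conductance calcium-activated potassium channel, at 9.65 ± 2.46. Scn3a at 6.70 ± 1.64 and Cacnb3 at 5.95 ± 0.312 CPM per kb followed it there, and the interval of 1 SD around Scn3a overlapped that of either of the others. Cacng7, Cacnb2 and Kcnk9, also among the 10 with the highest mean over 9 libraries, lay between 1.53 and 4.97 CPM per kb in every line. By family, the summed level of the Kv auxiliary subunits was 30.03 ± 1.52 CPM in control cells, 53.7 ± 3.78 in HD-het cells and 6.08 ± 1.11 in HD-homo cells, and that of the sodium channel α subunits was 0.622 ± 0.242, 5.37 ± 0.902 and 44.5 ± 10.7 CPM. Scn3a alone lay at 0.0238, 0.107 and 40.1 CPM in the same order, and so made up most of the HD-homo value. Over all 138 rows the sum was 122 ± 2.18, 181 ± 3.79 and 113 ± 10.97 CPM.

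**Figure D2:**
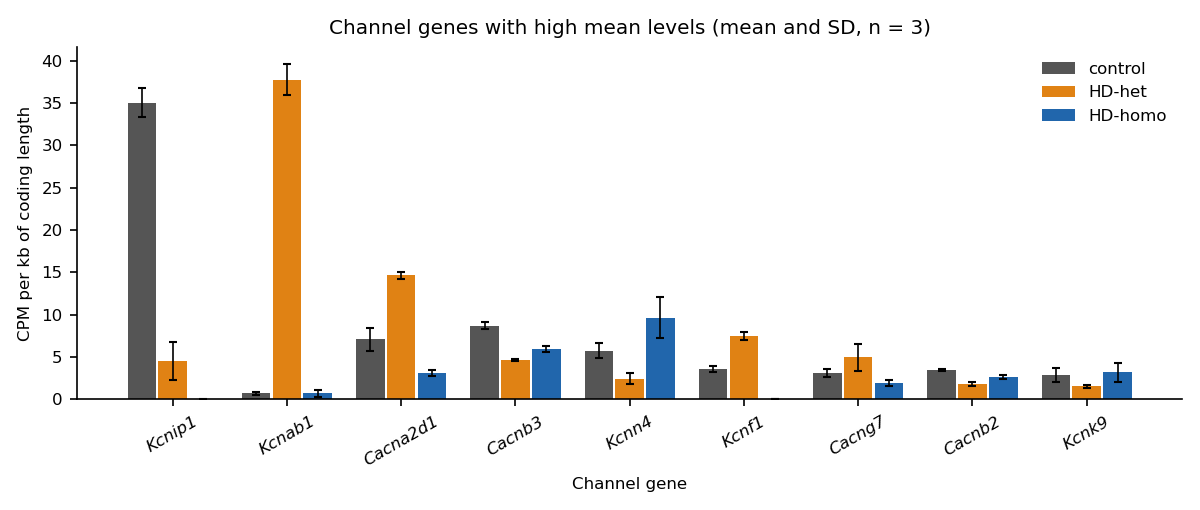
Bars give the mean CPM per kb of coding length, with the SD over 3 libraries, of 9 of the 10 channel genes with the highest mean over 9 libraries, by line. Kcnip1 is tallest in control, Kcnab1 in HD-het and Kcnn4 in HD-homo cells.

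Sodium channel α subunits were scarce in control cells and included the largest rise of any channel gene in HD-homo cells. Scn3a (chromosome 2, 65457118 to 65567591), an α subunit typical of embryonic brain, had 0, 3 and 0 counts in control libraries, 5, 3 and 1 in HD-het libraries and 1137, 989 and 1148 in HD-homo libraries. That was 31.6, 37.8 and 50.9 CPM in the HD-homo libraries, all far above every other library. The ratio of HD-homo to control was 1222 (95% interval 418 to 5929.7) by counting error alone (adjusted p 6.40e-09, edgeR), and that to HD-het was a log2 fold change of 8.49 (adjusted p 6.08e-09, SE 0.35). HD-het did not pass against control for Scn3a (adjusted p 0.201). The fitted log2 fold change against control, 10.13, was 13.11 without control replicate 2, which held all 3 control counts, and that against HD-het was 9.08 without HD-het replicate 1.

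Scn2a and Scn1a, the main α subunits of excitatory axons and of inhibitory interneurons, were higher in both mutant lines. Scn2a (chromosome 2, 65620764 to 65767447) lay at 0, 0.0714 and 0.0752 CPM in control libraries, 2.01, 1.84 and 1.89 in HD-het libraries and 1.14, 1.22 and 1.55 in HD-homo libraries, without overlap between lines. Its log2 fold change against control was 5.08 (adjusted p 1.62e-06, SE 0.40) in HD-het and 4.51 (adjusted p 5.27e-06, SE 0.42) in HD-homo cells, and HD-homo was not below HD-het at the threshold (log2 fold change -0.56, adjusted p 0.0559, SE 0.24). A separate row under the older symbol Scn2a1 falls outside the selection and may count part of the same fragments. It had no count in control libraries, 23, 27 and 20 counts in HD-het libraries and 26, 15 and 21 in HD-homo libraries, at least 8.57-fold and 7.46-fold above control. Scn1a (chromosome 2, 66270781 to 66440837) was without a count in control and lay at 0.152, 0.110 and 0.0946 CPM in HD-het and 1.08, 1.34 and 1.82 CPM in HD-homo libraries. HD-homo was at least 14.2-fold above control (adjusted p 7.42e-06) and differed from HD-het by a log2 fold change of 3.50 (adjusted p 2.98e-05, SE 0.38), while HD-het was at least 1.19-fold above control (adjusted p 0.00434).

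Scn9a, known from sensory neurons, had 0, 2 and 0 counts in control libraries, 2, 7 and 1 in HD-het libraries and 20, 32 and 18 in HD-homo libraries. The HD-homo to control ratio was 39.2 (95% interval 10.5 to 330.0) with an adjusted p of 0.000131, and HD-het did not pass against control (adjusted p 0.0775). Both control counts came from replicate 2, without which the fitted log2 value was 7.55 in place of 5.07. Scn8a, the α subunit of mature axon initial segments, did not pass the filter, with 2, 3 and 4 counts in control libraries, 1, 2 and 2 in HD-het libraries and 11, 17 and 15 in HD-homo libraries. Of the auxiliary subunits, Scn2b had no count, and Scn3b and Scn4b did not pass the filter.

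In all, 5 of the α subunit genes lie together on chromosome 2 in the order Scn3a, Scn2a, Scn1a, Scn9a and Scn7a, from 65457118 to 66784910 in the RefSeq annotation of GRCm38.p6. The file names genes by symbol alone, so positions here come from that annotation. Within 1 Mb of them lie 9 other protein-coding genes, which were looked at because they share the locus. Of the cluster, 4 genes rose in HD-homo cells, and Scn7a had 0, 0 and 1, 1, 2 and 3 and 0, 0 and 0 counts in the 3 lines and was not tested. The neighbours did not all follow. Cobll1, next to Scn3a beyond Slc38a11, lay at 98.6, 105 and 109 CPM in control libraries, 96.3, 90.8 and 102 in HD-het libraries and 155, 189.9 and 239 in HD-homo libraries (log2 fold change 0.90, adjusted p 0.000199, SE 0.13 for HD-homo against control). Ttc21b, between Scn2a and Scn1a, rose by 0.74 (adjusted p 9.09e-05, SE 0.10) in HD-homo cells and did not pass in HD-het cells (adjusted p 0.839). Galnt3, beside it, was higher in both, by 2.59 (adjusted p 0.000453, SE 0.45) in HD-het and 3.14 (adjusted p 9.52e-05, SE 0.42) in HD-homo cells. Grb14 fell in both, with log2 fold changes of -0.95 (adjusted p 0.000631, SE 0.17) and -1.80 (adjusted p 9.59e-06, SE 0.18), and B3galt1 rose by 1.02 (adjusted p 0.0138, SE 0.31) in HD-het and fell in HD-homo cells, where it had 1, 0 and 0 counts. Slc38a11 and Gm1322 had no count in any library, and Csrnp3 and Xirp2 did not pass the filter.

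**Figure D3:**
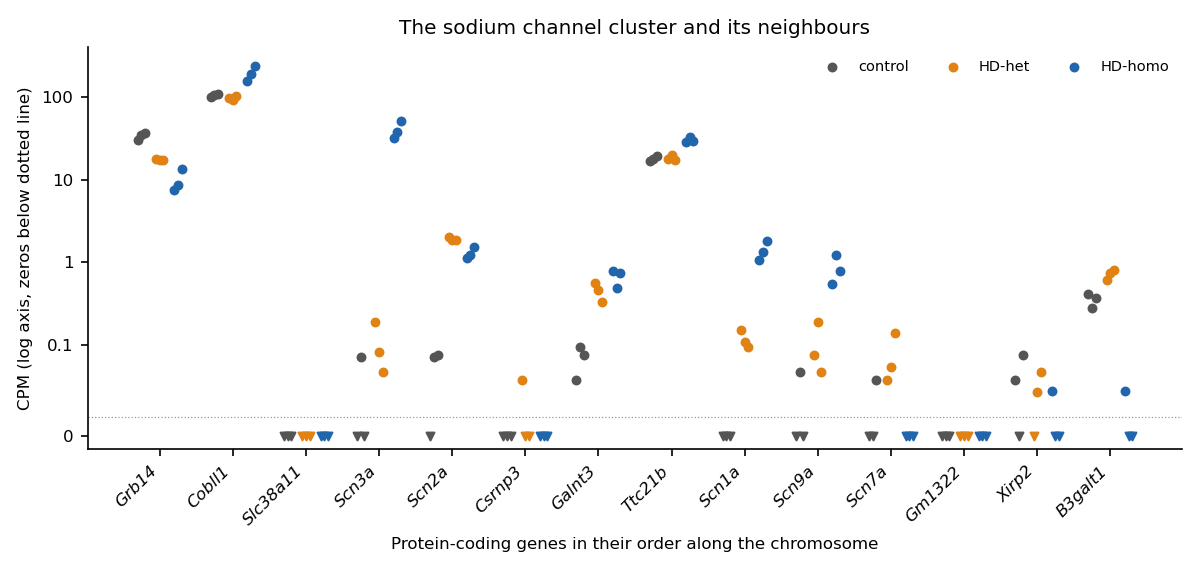
Each point is the CPM of 1 library for the protein-coding genes of the sodium channel stretch of chromosome 2, in their order along it, coloured by line, on a log axis with libraries without a count drawn as triangles below the dotted line. Scn3a, Scn1a and Scn9a are highest in HD-homo libraries, Scn2a is high in both mutant lines, and Grb14 and B3galt1 are lowest in HD-homo libraries.

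The promoters of Scn2a, Scn1a and Scn9a, 3 of the 4 cluster members that rose in HD-homo cells (Scn3a is not shown), and of Kcnf1, the channel gene with the largest fall that had a single promoter entry, are shown for reference. They run from 250 bases before to 50 bases after an annotated start, 5′ to 3′ on the strand of the gene, in RefSeq's promoter table for GRCm38.p6. Scn2a has an upstream start at chr2:65620519-65620818 and a downstream start at chr2:65668436-65668735, both on the plus strand. Scn1a at chr2:66440788-66441087, Scn9a at chr2:66634913-66635212 and Kcnf1 at chr12:17176839-17177138 are on the minus strand. Capitals mark the matches found. The letters searched on both strands were TATAAA for the TATA box, CCAAT for the CCAAT box, GGGCGG for the GC box and, for the left and right parts of the recognition element of the repressor REST, CAGCACC and then GGACAG. The motifs marked in these windows do not overlap.
Scn2a upstream start: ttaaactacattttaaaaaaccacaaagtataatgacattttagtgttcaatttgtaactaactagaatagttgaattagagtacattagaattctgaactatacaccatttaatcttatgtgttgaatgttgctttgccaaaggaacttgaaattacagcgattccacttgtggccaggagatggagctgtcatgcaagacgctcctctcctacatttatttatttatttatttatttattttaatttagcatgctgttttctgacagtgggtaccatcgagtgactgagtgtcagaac
Scn2a downstream start: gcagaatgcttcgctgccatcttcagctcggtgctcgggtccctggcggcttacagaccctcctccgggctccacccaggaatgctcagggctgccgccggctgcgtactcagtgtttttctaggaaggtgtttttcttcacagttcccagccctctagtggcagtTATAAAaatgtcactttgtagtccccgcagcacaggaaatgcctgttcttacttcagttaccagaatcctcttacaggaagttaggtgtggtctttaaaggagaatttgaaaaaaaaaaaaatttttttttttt
Scn1a: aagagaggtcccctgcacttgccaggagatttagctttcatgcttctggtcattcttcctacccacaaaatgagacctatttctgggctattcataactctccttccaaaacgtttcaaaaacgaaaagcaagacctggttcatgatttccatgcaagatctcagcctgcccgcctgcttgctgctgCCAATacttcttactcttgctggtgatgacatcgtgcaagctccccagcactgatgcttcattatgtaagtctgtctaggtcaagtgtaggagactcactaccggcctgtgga
Scn9a: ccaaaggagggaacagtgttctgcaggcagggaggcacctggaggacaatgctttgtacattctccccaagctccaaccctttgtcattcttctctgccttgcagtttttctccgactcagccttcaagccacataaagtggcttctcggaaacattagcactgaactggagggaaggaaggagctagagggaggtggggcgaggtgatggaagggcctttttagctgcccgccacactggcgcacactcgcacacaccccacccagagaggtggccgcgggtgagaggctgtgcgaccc
Kcnf1: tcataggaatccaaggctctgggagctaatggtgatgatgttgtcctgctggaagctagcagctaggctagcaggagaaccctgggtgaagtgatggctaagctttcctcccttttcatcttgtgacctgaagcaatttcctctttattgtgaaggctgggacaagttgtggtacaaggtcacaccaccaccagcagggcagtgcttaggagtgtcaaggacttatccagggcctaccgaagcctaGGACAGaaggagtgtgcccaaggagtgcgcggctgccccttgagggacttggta
The upstream window of Scn2a and that of Scn9a held none of the searched letters. The TATA box was found in the downstream Scn2a window and in 13.6% of all 32851 windows of the table, the CCAAT box in the Scn1a window and in 37.4%, and the right part of the REST element in the Kcnf1 window and in 22.2%. Of 138 windows of 102 channel genes, 7 held the TATA box, 41 the CCAAT box, 62 the GC box, 11 the left and 36 the right part of the REST element. All windows of the table held the GC box in 35.7% and the left part in 7.14% of cases. The GC content was 33.0% and 47.7% for the 2 starts of Scn2a, 47.3% for Scn1a, 57.3% for Scn9a and 53.0% for Kcnf1. A match is a description of the letters in the window.

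Among calcium channel α1 subunits, the L-type pore Cacna1c stood out in HD-het cells and the T-type pore Cacna1g in HD-homo cells. Cacna1c (chromosome 6, 118587240 to 119197384), the L-type pore of heart, smooth muscle and brain, overlaps Dcp1b and other transcripts on the other strand. Predicted genes overlap it on its own strand as well, and the use of strand in counting is not given in the sources used here. Cacna1c lay at 4.16, 5.26 and 3.69 CPM in control libraries, 15.5, 14.02 and 15.9 in HD-het libraries and 2.73, 2.03 and 2.97 in HD-homo libraries, which did not overlap. Against control the log2 fold change was 1.78 (adjusted p 4.56e-06, SE 0.16) in HD-het and -0.78 (adjusted p 0.00416, SE 0.18) in HD-homo cells. Cacna1g had 0.267, 0.214 and 0.113 CPM in control libraries, 0.0759, 0.0550 and 0.0946 in HD-het libraries and 1.45, 1.15 and 1.64 in HD-homo libraries. HD-homo was above control by 2.79 (adjusted p 2.11e-05, SE 0.31) and above HD-het by 4.21 (adjusted p 2.38e-06, SE 0.38). The fall of Cacna1g in HD-het cells, -1.42 (adjusted p 0.0332, SE 0.52), was lost without control replicate 1 or 2 or HD-het replicate 1 or 2 (adjusted p 0.0677 to 0.127).

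The neuronal pores Cacna1a, Cacna1b and Cacna1d had no order of the lines in common. Cacna1a, the P/Q-type pore, lay at 4.49 ± 0.0776 CPM in control cells, 4.49 ± 0.498 in HD-het cells and 1.86 ± 0.414 in HD-homo cells. HD-homo was below control (log2 fold change -1.24, adjusted p 0.000146, SE 0.18) and below HD-het (log2 fold change -1.24, adjusted p 7.94e-05, SE 0.18). Cacna1b, the N-type pore, was below 1 CPM throughout, with 2, 3 and 2, 6, 4 and 5 and 24, 20 and 9 counts in control, HD-het and HD-homo libraries, and rose in HD-homo cells by 3.00 (adjusted p 0.000199, SE 0.44). Cacna1d, the second neuronal L-type pore, was at 0.335 ± 0.0460, 0.677 ± 0.189 and 0.356 ± 0.123 CPM in the same order. Its rise in HD-het cells, 1.00 (adjusted p 0.0217, SE 0.33), was lost without control replicate 1 or 2 or HD-het replicate 1 (adjusted p 0.0545 to 0.108), and its difference between the mutant lines, -0.90 (adjusted p 0.0333, SE 0.34), without HD-het or HD-homo replicate 1 or 3 (adjusted p 0.0612 to 0.142). The other 5 α1 genes did not pass the filter.

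The auxiliary calcium channel subunits did not move together. Cacna2d1 (chromosome 5, 15934264 to 16374511), the α2δ subunit that binds gabapentin and brings channels to the surface, lay at 26.5, 25.6 and 18.2 CPM in control libraries, 46.9, 49.5 and 49.2 in HD-het libraries and 11.8, 10.2 and 9.40 in HD-homo libraries. Like Cacna1c it was highest in HD-het and lowest in HD-homo cells without overlap, with log2 fold changes of 1.05 (adjusted p 6.31e-05, SE 0.14) and -1.16 (adjusted p 5.43e-05, SE 0.14) against control. The cytoplasmic β subunits, which carry α1 subunits to the membrane, were all 4 testable. Cacnb3 fell from 12.7 ± 0.557 CPM in control to 6.77 ± 0.174 in HD-het cells and 8.66 ± 0.454 in HD-homo cells (log2 fold changes -0.90, adjusted p 1.99e-05, SE 0.10, and -0.55, adjusted p 0.000866, SE 0.10), and its difference between the mutant lines was 0.35 (adjusted p 0.00980, SE 0.10), a call lost in a fit of the 6 libraries compared (adjusted p 0.0548). Cacnb2 was at 6.80 ± 0.232, 3.58 ± 0.479 and 5.26 ± 0.477 CPM and fell in HD-het cells (log2 fold change -0.92, adjusted p 0.000158, SE 0.14). Its smaller difference in HD-homo cells, -0.37 (adjusted p 0.0399, SE 0.13), was lost without any 1 of the control libraries or HD-homo replicate 1 or 2 (adjusted p 0.0600 to 0.103). HD-homo exceeded HD-het by 0.55 (adjusted p 0.00442, SE 0.14).

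Cacnb4, the β subunit prominent in cerebellum, was the member of its family that rose in HD-het cells, from 0.0382, 0.143 and 0.188 CPM in control to 0.797, 0.880 and 1.32 in HD-het libraries (log2 fold change 2.92, adjusted p 0.000112, SE 0.41), and lay at 0.111, 0.115 and 0.0443 CPM in HD-homo libraries. Cacnb1, the β subunit of skeletal muscle and other tissues, overlaps the ribosomal protein gene Rpl19 on the other strand. It was at 1.09 ± 0.171, 0.727 ± 0.201 and 1.43 ± 0.421 CPM and passed between the mutant lines and not against control (log2 fold change 1.04, adjusted p 0.00812, SE 0.29). Cacng7 belongs to the γ family but acts on AMPA receptors, and it lay at 2.18, 2.88 and 2.67 CPM in control libraries, 5.62, 3.41 and 3.31 in HD-het libraries and 1.67, 1.22 and 1.77 in HD-homo libraries. Its rise in HD-het cells, 0.66 (adjusted p 0.0262, SE 0.23), was lost without control replicate 1 or 3 or HD-het replicate 1 (adjusted p 0.0539 to 0.158), and without the last the log2 fold change was 0.36. The fall in HD-homo cells, -0.73 (adjusted p 0.0325, SE 0.25), was lost without control replicate 2 or 3 or HD-homo replicate 1 or 2 (adjusted p 0.0532 to 0.111). Between the mutant lines the difference was -1.40 (adjusted p 0.000365, SE 0.24).

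**Figure D4:**
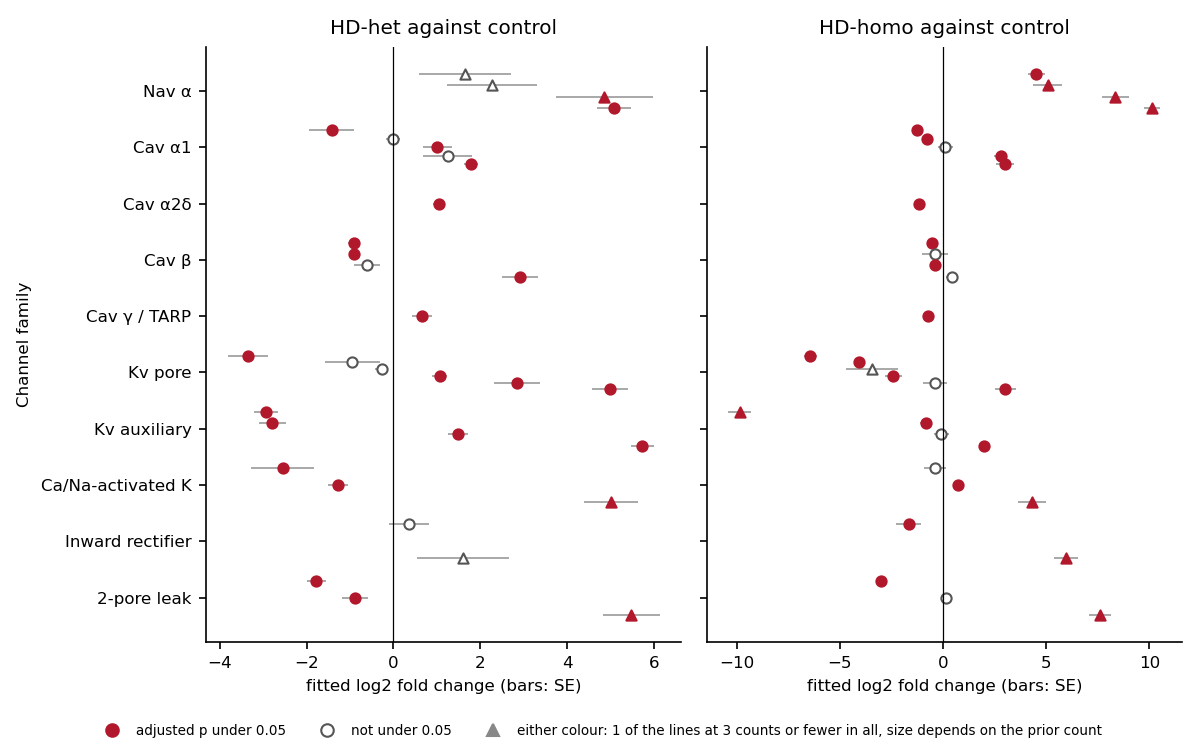
Each point is the fitted log2 fold change, with its SE, of 1 of 33 tested channel genes against control, by family, for HD-het (left) and HD-homo cells (right), and the 2 panels share the control libraries. Filled points passed the threshold, triangles have 3 or fewer counts in 1 of the lines compared, and the 4 sodium channel α subunits drawn lie to the right in HD-homo cells while both directions occur among the Kv pore and Kv auxiliary genes.

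The summed level of the pore-forming Kv genes was 15.3 ± 0.465 CPM in control cells, 22.5 ± 2.58 in HD-het cells and 2.44 ± 0.532 in HD-homo cells. In control and HD-het cells Kcnf1 and Kcnq5 made up most of it. Not every gene had the order of the sum. Of those tested, Kcnf1, Kcnq5 and Kcnh5 had their lowest mean in HD-homo cells, Kcng1 and Kcna6 in HD-het cells, and Kcnd1 in control cells. Kcnf1 (chromosome 12, 17172100 to 17176888), an electrically silent subunit that assembles with Kcnb channels, lay at 5.54, 5.85 and 4.81 CPM in control libraries, 10.9, 10.97 and 12.1 in HD-het libraries and 0.111, 0.0382 and 0 in HD-homo libraries. The HD-het libraries were all above control (log2 fold change 1.06, adjusted p 0.000201, SE 0.16) and the HD-homo libraries all below, with a log2 fold change of -6.43 (adjusted p 4.24e-08, SE 0.33) against control and -7.49 (adjusted p 5.52e-09, SE 0.31) against HD-het. The size rests on few counts, since without HD-homo replicate 1 these were -7.77 and -8.82. Kcnq5 (chromosome 1, 21398399 to 21962650), a pore subunit of the M-current, lay at 7.22, 7.23 and 8.01 CPM in control libraries, 5.81, 5.20 and 7.71 in HD-het libraries and 0.445, 0.459 and 0.399 in HD-homo libraries. Control and HD-het overlapped, and HD-het did not pass against control (log2 fold change -0.27, adjusted p 0.140, SE 0.15), and HD-homo was below both (log2 fold changes -4.09, adjusted p 4.46e-08, SE 0.21 against control, and -3.81, adjusted p 6.16e-08, SE 0.21 against HD-het).

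Kcnh5, a pore of the ether-à-go-go family, was an HD-het gene among these lines, with 1, 1 and 2 counts in control, 46, 50 and 27 in HD-het and 0 in every HD-homo library. HD-het rose to 1.75, 1.37 and 1.28 CPM, a log2 fold change of 4.98 (adjusted p 9.18e-06, SE 0.41) against control, and was at least 13.3-fold above HD-homo (adjusted p 3.00e-06). Kcnd1, a pore of the A-type current, was below 1 CPM in every line but rose in both mutant lines, by 2.85 (adjusted p 0.000743, SE 0.53) and 3.02 (adjusted p 0.000665, SE 0.52), from 0.0695 ± 0.0289 CPM in control. Kcng1, a silent subunit like Kcnf1, fell in both, with log2 fold changes of -3.35 (adjusted p 0.000100, SE 0.47) and -2.41 (adjusted p 0.000578, SE 0.41), from 0.782 ± 0.117 CPM. Kcna6, a Shaker-type delayed rectifier, lay at 1.45, 0.381 and 1.02 CPM in control libraries, 0.455, 0.467 and 0.473 in HD-het libraries and 0.139, 0.956 and 1.11 in HD-homo libraries and passed in no comparison, with an SD of 0.538 and 0.521 CPM in control and HD-homo cells.

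The summed level of the auxiliary Kv subunits was above that of control in HD-het libraries and below it in HD-homo libraries, but its genes did not share that order. Kcnip1 (chromosome 11, 33629339 to 33993348) overlaps Kcnmb1 on the other strand and predicted genes. It lay at 24.7, 25.5 and 27.3 CPM in control libraries, 4.86, 3.55 and 1.56 in HD-het libraries and 0, 0.0765 and 0 in HD-homo libraries, and Kcnmb1 itself had 1, 4 and 0 counts in control. HD-het was below control in every library, with a log2 fold change of -2.93 (adjusted p 7.42e-06, SE 0.28). The ratio to HD-homo, which had 2 counts in all, was 1092 (95% interval 302 to 9026) for control and 146 (95% interval 40.2 to 1214) for HD-het (adjusted p 9.31e-08 and 5.41e-06). The fitted log2 values, -9.85 and -6.92, were -12.58 and -9.65 without HD-homo replicate 2, which held both counts, and -9.15 and -6.22 without HD-homo replicate 1. Within HD-het the libraries spread from 1.56 to 4.86 CPM, wider than within control.

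The 3 Kvβ genes, whose products bind Shaker-type pores in the cytoplasm, each had a pattern of their own. Kcnab1 (chromosome 3, 64949212 to 65378225) lay at 1.15, 0.737 and 0.865 CPM in control libraries, 49.9, 47.5 and 45.2 in HD-het libraries and 0.417, 0.841 and 1.46 in HD-homo libraries. Every HD-het library was far above every library of the other lines, the log2 fold change was 5.73 (adjusted p 3.86e-08, SE 0.26) against control and -5.80 (adjusted p 1.38e-08, SE 0.27) for HD-homo against HD-het, and HD-homo overlapped control (log2 fold change -0.08, adjusted p 0.878, SE 0.36). Kcnab2 rose in both mutant lines, from 0.797 ± 0.140 CPM in control to 2.29 ± 0.0968 in HD-het cells and 3.21 ± 0.761 in HD-homo cells, by 1.49 (adjusted p 0.000214, SE 0.23) and 1.97 (adjusted p 3.13e-05, SE 0.23). Kcnab3 lay at 1.95, 2.52 and 2.82 CPM in control libraries, 0.190, 0.330 and 0.567 in HD-het libraries and 1.64, 1.19 and 1.20 in HD-homo libraries. It fell in HD-het cells (log2 fold change -2.79, adjusted p 2.40e-05, SE 0.32) and stood above that level in HD-homo cells by 1.95 (adjusted p 0.000348, SE 0.34). Its fall in HD-homo cells, -0.84 (adjusted p 0.0207, SE 0.26), was lost without control or HD-homo replicate 2 or 3 (adjusted p 0.0536 to 0.0730). Of the other auxiliary genes, Kcne1, Kcne1l, Kcne4, Kcnip2, Kcnip4 and Kcnrg had no count.

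**Figure D5:**
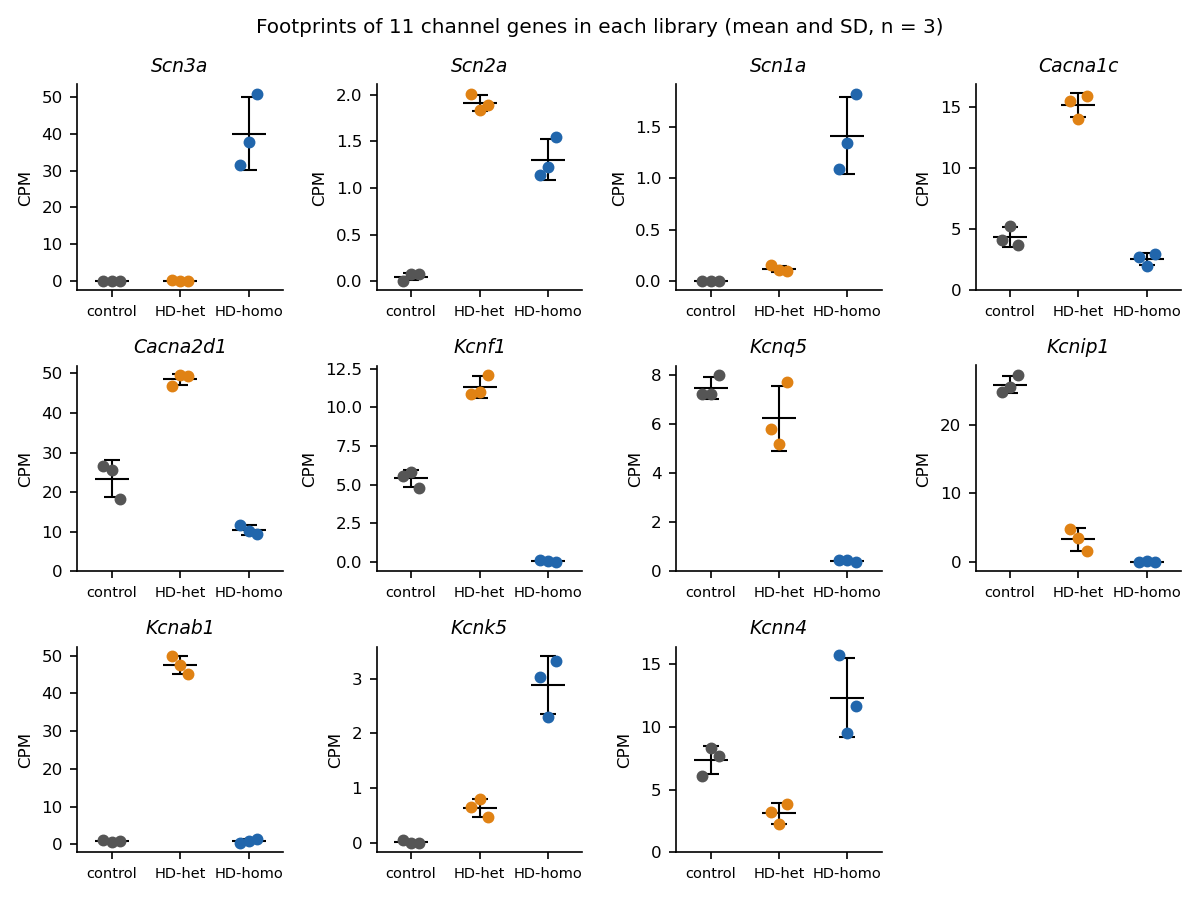
Each point is the CPM of 1 library for 11 channel genes, by line, with the mean and SD over 3 libraries, and each panel has its own linear axis from 0. Scn3a and Kcnk5 are highest in HD-homo, Cacna1c, Cacna2d1 and Kcnab1 in HD-het, and Kcnip1 in control libraries, while Kcnf1 and Kcnq5 are near 0 in HD-homo libraries.

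Leak and rectifier channels set the resting potential rather than respond to depolarisation. Of the 2-pore leak channels, Kcnk10, a mechanosensitive TREK-type channel, fell in both mutant lines, from 5.61, 5.45 and 5.30 CPM in control to 1.18, 1.90 and 1.65 in HD-het libraries and 0.918, 0.421 and 0.621 in HD-homo libraries (log2 fold changes -1.78, adjusted p 4.67e-05, SE 0.22, and -3.01, adjusted p 2.28e-06, SE 0.25). Kcnk5 (chromosome 14, 20140057 to 20181782), an acid-inhibited TASK-type channel, rose in both. It had 1, 0 and 0 counts in control libraries and lay at 0.645, 0.797 and 0.473 CPM in HD-het and 3.03, 2.29 and 3.33 in HD-homo libraries, with ratios to control of 63.3 (95% interval 10.9 to 2545) and 273 (95% interval 48.6 to 10837) by counting error and adjusted p of 3.33e-05 and 4.11e-07. The fitted log2 fold changes, 5.48 and 7.60, were 7.28 and 9.41 without control replicate 1 and 4.81 and 6.94 without control replicate 2. HD-homo exceeded HD-het by 2.13 (adjusted p 3.72e-05, SE 0.27). Kcnk9, another TASK-type channel, was at 3.45 ± 0.979, 1.85 ± 0.244 and 3.86 ± 1.35 CPM, with HD-homo above HD-het (log2 fold change 1.05, adjusted p 0.00936, SE 0.30). Its fall in HD-het cells, -0.89 (adjusted p 0.0250, SE 0.30), was lost without control replicate 1 or 3 or HD-het replicate 1 or 2 (adjusted p 0.0631 to 0.0873).

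Kcnj2, a strong inward rectifier of muscle and brain, was an HD-homo gene, with 1, 1 and 0 counts in control libraries, 3, 1 and 2 in HD-het libraries and 80, 30 and 28 in HD-homo libraries. The HD-homo libraries lay at 2.22, 1.15 and 1.24 CPM, the ratio to control was 77.3 (95% interval 20.99 to 644) with an adjusted p of 8.90e-06, and the log2 fold change against HD-het was 4.37 (adjusted p 1.36e-05, SE 0.49). Kcnj4, the inward rectifier prominent in striatal neurons, was below 1 CPM in every library and lowest in HD-homo cells, with 3, 18 and 15 counts in control libraries, 14, 14 and 12 in HD-het libraries and 7, 2 and 1 in HD-homo libraries. HD-homo was below HD-het (log2 fold change -2.01, adjusted p 0.0104, SE 0.59), at -2.88 without HD-homo replicate 1. Control and HD-homo libraries overlapped, and that call, -1.65 (adjusted p 0.0438, SE 0.61), was lost without control or HD-homo replicate 2 or 3 (adjusted p 0.107 to 0.138) and stood at a log2 fold change of -2.53 without HD-homo replicate 1.

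Kcnn4 (chromosome 7, 24369826 to 24385212) fell in HD-het cells and rose in HD-homo cells. It lay at 6.11, 8.30 and 7.67 CPM in control libraries, 3.23, 2.25 and 3.88 in HD-het libraries and 15.7, 9.56 and 11.7 in HD-homo libraries, without overlap. The log2 fold change against control was -1.27 (adjusted p 0.000699, SE 0.23) in HD-het and 0.74 (adjusted p 0.0143, SE 0.21) in HD-homo cells, the latter lost without control replicate 1 or HD-homo replicate 1 (adjusted p 0.0671 and 0.0607), and HD-homo exceeded HD-het by 2.02 (adjusted p 1.56e-05, SE 0.23). Kcnt2, a sodium-activated potassium channel, had 2, 1 and 0 counts in control and lay at 0.949, 1.35 and 1.13 CPM in HD-het and 0.528, 0.459 and 1.20 in HD-homo libraries, with ratios to control of 36.9 (95% interval 12.3 to 182) and 21.7 (95% interval 7.05 to 108) (adjusted p 4.34e-05 and 0.000340). Its fitted log2 fold changes, 5.01 and 4.30, were 5.93 and 5.23 without control replicate 1. Kcnn1, a small-conductance calcium-activated channel below 1 CPM in mean, fell in HD-het cells (log2 fold change -2.55, adjusted p 0.0104, SE 0.73), and HD-homo exceeded HD-het by 2.16 (adjusted p 0.0270, SE 0.77), which was lost without HD-het or HD-homo replicate 1 or 3 (adjusted p 0.0567 to 0.0775). Without HD-het replicate 2 these values of Kcnn1 were -3.65 and 3.24, and without control replicate 3 the first was -1.91.

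Among the 64 members with counts below the filter, some had nearly all of them in 1 or 2 lines. They were chosen for naming after their values were seen, and their adjusted p comes from a fit without the filter over all genes with a count. Kcnd3, an A-type pore, had 8, 34 and 19 counts in the HD-het libraries and 0 in the other 6, at least 7.15-fold above control (adjusted p 0.000145). Kcnh1 had 1, 0 and 0, 13, 13 and 19 and 1, 0 and 1 counts in control, HD-het and HD-homo libraries (adjusted p 8.98e-05 for HD-het against control), and its relative Kcnh2, the hERG channel of the cardiac action potential, had 6, 5 and 7, 9, 31 and 17 and 1, 1 and 1 (adjusted p 4.59e-05 between the mutant lines). Kcnip3 had 0, 4 and 0, 4, 2 and 2 and 12, 15 and 19 counts, most of them in HD-homo libraries (adjusted p 0.000866 against control). The leak channels Kcnk3 and Kcnk13 had 13, 19 and 6 and 10, 11 and 6 counts in control libraries and 1, 0 and 0 and 0, 0 and 0 in HD-homo libraries (adjusted p 0.000269 and 0.000508). Kcnn2 had 6, 4 and 9 and 9, 12 and 18 counts in control and HD-het libraries and 0 in each HD-homo library (adjusted p 0.00620 and 0.000255 against them).

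Most channel genes known from striatal neurons were at 0 or low. Among 14 such genes, Kcnd2 and Kcnip2, which build the somatodendritic A-type current, and Kcna2, a Shaker-type pore of axons, had a count of 0 in all 9 libraries. For each of them the floor of 3 counts was taken as the bound in a library, or 0.142 CPM in that with the smallest TMM-scaled total. It covers counting error alone and is a bound for 1 library, not for a line. Kcnq3, an M-current pore, had 1 count in all. Scn8a did not pass the filter, and Kcnj4, Kcnj2, Cacna1a, Cacna1b, Cacna1c, Cacna1d, Scn1a and Scn2a had the values given above.

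The lines did not rank alike over the 35 tested genes. The mean was highest in HD-het cells for 14, in HD-homo cells for 12 and in control cells for 9. Called against control in both mutant lines were 7 genes higher in both, 6 lower in both, 5 higher in HD-het and lower in HD-homo, and 2 lower in HD-het and higher in HD-homo cells, where the shares of all tested genes were 9.54%, 7.46%, 6.79% and 5.10%. Among the 7 were Scn1a, Scn2a, Kcnd1, Kcnab2, Kcnt2 and Kcnk5, and the 6 were Cacnb2, Cacnb3, Kcng1, Kcnab3, Kcnip1 and Kcnk10. Among the 5 were Cacna1c, Cacna2d1, Cacng7 and Kcnf1, and the 2 were Cacna1g and Kcnn4. Both comparisons share the control libraries, so these counts are a description. The summed neural progenitor markers had the order of the 5 genes, highest in HD-het and lowest in HD-homo libraries. Most of that sum was Nes, with a mean of 399.5 CPM for control, 1086 for HD-het and 7.01 for HD-homo. Pax6 had the same order, but the other markers of the list did not. Sox2 was highest in control cells, Fabp7 was lowest in control cells, and Hes5 had no count. The summed smooth muscle and mesenchyme markers were also highest in HD-het libraries, but their control and HD-homo ranges overlapped. The members of that list did not move together. Mean levels in HD-homo cells were below control for Acta2 (267 against 4099 CPM), Tagln (47.5 against 535), Myh11 and Cnn1. They were above control for Col1a1 (4567 against 3343 CPM), Pdgfrb and Col1a2. Col1a2 alone was highest in HD-homo cells, at 1027 CPM against 88.9 in HD-het cells. The part of either list was not tested.

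Proteins that work with these channels were described from a list of 57 symbols, of which 55 are in the table. Here 28 were testable, and 13 were higher and 5 lower for HD-het (31.0% and 29.1% of all tested genes), and 7 higher and 12 lower for HD-homo (23.3% and 22.3%), against control. Between the mutant lines 3 were higher and 16 lower in HD-homo cells (34.6% and 32.8%). The inhibitory RGK GTPases, which keep high-voltage-activated calcium channels from the surface, did not move as 1 group. Rem2 lay at 1.57, 1.57 and 2.33 CPM in control libraries, 0.417, 0.467 and 0.378 in HD-het libraries and 0.0834, 0 and 0 in HD-homo libraries and fell in HD-het cells (log2 fold change -2.07, adjusted p 0.000288, SE 0.34), with a control to HD-homo ratio of 50.3 (95% interval 16.9 to 246) and an adjusted p of 6.07e-06. Rrad fell in HD-het cells, from 15.9 ± 1.83 to 5.04 ± 1.01 CPM (log2 fold change -1.64, adjusted p 6.66e-06, SE 0.16), and was at 15.97 ± 1.73 CPM in HD-homo cells. Gem went the other way, from 16.2 ± 0.942 to 46.4 ± 10.04 CPM in HD-het cells (log2 fold change 1.53, adjusted p 6.02e-06, SE 0.14), with 18.1 ± 0.717 CPM in HD-homo cells. Rem1 did not pass the filter. Tmem37, a protein related to calcium channel γ subunits, rose in HD-homo cells from 1.44 ± 0.314 to 8.32 ± 2.02 CPM (log2 fold change 2.53, adjusted p 4.91e-06, SE 0.23). Cachd1, an α2δ-like protein, had the order of Cacna2d1, from control over HD-het to HD-homo 16.9 ± 3.54, 44.02 ± 6.49 and 6.57 ± 1.13 CPM (log2 fold changes 1.38, adjusted p 4.48e-05, SE 0.17, and -1.36, adjusted p 0.000103, SE 0.18 against control).

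The ankyrin scaffolds went opposite ways. Ank3, which anchors sodium channels at the axon initial segment, fell from 43.8, 45.5 and 44.5 CPM in control to 17.2, 16.7 and 14.3 in HD-het libraries and 16.7, 19.2 and 19.5 in HD-homo libraries (log2 fold changes -1.47, adjusted p 6.54e-07, SE 0.10, and -1.28, adjusted p 1.28e-06, SE 0.10). Ank2 rose from 3.21, 3.59 and 3.99 CPM to 18.1, 18.5 and 16.1 and 10.8, 11.4 and 10.02 (log2 fold changes 2.29, adjusted p 9.87e-08, SE 0.12, and 1.58, adjusted p 1.19e-06, SE 0.12). Hcn2, a hyperpolarisation-activated pacemaker channel, rose in both, by 2.65 (adjusted p 7.31e-06, SE 0.26) and 1.30 (adjusted p 0.00274, SE 0.28), and the proton channel Hvcn1 had 2, 0 and 1 counts in control and 1.02 ± 0.0625 CPM in HD-het cells, a ratio of 32.03 (95% interval 10.6 to 158) with an adjusted p of 3.88e-05. Clcn3, an endosomal chloride-proton exchanger, fell in HD-homo cells from 35.2 ± 1.21 to 6.85 ± 0.920 CPM (log2 fold change -2.36, adjusted p 1.97e-08, SE 0.11). The repressor REST, which silences many channel genes outside neurons, and its corepressors were also read. Rcor2 fell in HD-het cells (log2 fold change -1.20, adjusted p 4.48e-05, SE 0.15) and was less low in HD-homo cells (log2 fold change 0.65, adjusted p 0.00286, SE 0.15 for HD-homo against HD-het). The other corepressor genes of the list rose in HD-het cells, Rcor3 by 0.90 (adjusted p 4.62e-05, SE 0.11) and Rcor1 by 0.25 (adjusted p 0.0439, SE 0.10), and did not pass in HD-homo cells against control (adjusted p 0.475 and 0.763). Gem, Rcor1, Rcor3 and Rest were named after their values were seen. Rest lay at 73.6, 68.8 and 71.1 CPM in control libraries, 92.9, 97.5 and 91.2 in HD-het libraries and 97.8, 117 and 101 in HD-homo libraries (log2 fold changes 0.40, adjusted p 0.00172, SE 0.08, and 0.56, adjusted p 0.000236, SE 0.08 against control).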

How the data were processed

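The deposited table held whole-number counts of ribosome footprints per gene symbol for 9 libraries, without normalization. Per the labels, the authors used RNase for 30 min, sucrose gradients to isolate monosomes, and a small RNA library kit, and the submitters' processing notes name cutadapt, Bowtie 1.0.1 and mm10. The counting program, gene annotation and use of strand are not given in the sources used here, so overlapping genes, and fragments shared between related genes, may be counted in either. Members that overlap a gene on the other strand include Cacna1d (Dcp1a and Chdh), Cacnb1 (Rpl19) and Kcnab2 (Nphp4). Genes were kept by edgeR's default filter for 3 libraries a line (12678 of 36410), scaled by TMM and tested with edgeR 4.0.16 (R 4.3.3, quasi-likelihood F test, 2-sided) in 1 fit of all 9 libraries, with Benjamini-Hochberg adjustment over all tested genes and a threshold of 0.05. The SE is the log2 fold change divided by the square root of F. Against a line with 0 counts a fold is a bound at 3 counts a library, and against 1 to 3 counts in all it is a ratio of pooled counts with an exact 95% interval, both for counting error only. PCR copies are not told apart, so the counts are not independent molecules.

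The members, the partner and marker lists and the rule for naming genes were chosen with earlier results of these data known. In each comparison the rule named up to 12 called genes in each direction with at least 1 CPM in the higher line, the 10 highest per coding length, 3 partners in each direction and 14 striatal genes, and for members under 1 CPM and untested ones the choice followed their values. No tested channel gene with a mean of 1 CPM or more in some line was without a call. The values of 3 members are not reported here, which still enter the counts and sums. A planned protein table for coding length was not used here, and lengths are those of the longest curated RefSeq coding sequence (134 of 138 rows). The labels name 3 independent rounds of culture, and p-values measure the spread between these. The procedure was also run on simulated data, which held no gene nearly absent from 1 line and high in another. No result given here rests on that run. Results were recomputed with RLE size factors or total counts in place of TMM, with DESeq2 1.42.0, with a minimum of 10 counts for each library or no minimum, on only the libraries of a comparison, with replicate number as a blocking factor, and with each library left out.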

Additional observations from a re-analysis of the deposited data

How the results depend on the processing

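Over the alternatives, 69 of the 82 called pairs of a gene and a comparison kept their direction and call wherever they were tested, 13 lost the call at least once, and none reversed. Counts are given with the share of all genes tested in the same fit in parentheses. With at least 10 counts in every library only 13 channel genes were testable, by construction without those at or near 0 in 1 line. Of these, 6 were higher and 5 lower in HD-het (30.3% and 29.2%) and 3 higher and 7 lower in HD-homo cells against control (21.4% and 20.9%), 5 were higher and 7 lower between HD-homo and HD-het (33.5% and 32.3%), and all 13 differed among the lines (77.2%). Without a filter 99 were tested, with 22 higher and 13 lower in HD-het (23.9% and 23.6%), 17 higher and 21 lower in HD-homo (17.7% and 18.2%), 21 higher and 24 lower between HD-homo and HD-het (27.8% and 26.1%) and 53 differing (63.2%). Leaving out 1 library at a time gave 16 to 19 higher (26.6% to 28.1%) and 8 to 11 lower (25.8% to 28.5%) in HD-het cells, 13 to 16 higher (18.0% to 23.1%) and 11 to 13 lower (18.3% to 21.7%) in HD-homo cells, 13 to 17 higher (31.7% to 34.0%) and 14 to 20 lower (30.2% to 32.7%) between HD-homo and HD-het, and 36 to 41 differing (73.4% to 78.6%), as more genes pass the filter with 2 libraries in a line. Cacnb3 lost its difference between the mutant lines in a fit of the 6 libraries compared (adjusted p 0.0548). Some calls lost without a library were also lost under other processing. DESeq2 lost those of Cacna1d in both comparisons, Cacna1g in HD-het and Kcnj4 in HD-homo cells. The replicate block lost those of Cacna1d between the mutant lines, Cacna1g in HD-het, and Cacnb2 and Kcnj4 in HD-homo cells. Total counts lost those of Cacna1d between the mutant lines and Cacnb2 in HD-homo cells. Without a filter Cacna1d lost its difference between the mutant lines.

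Same-numbered libraries did not deviate together, with correlations of -0.36 to 0.17 over 9 pairs against -0.28 to 0.38 for the other 18, and 3 of 9 libraries correlated best with their own number, so the numbers were not taken to pair them. With the replicate number as a block, 17 channel genes were higher and 9 lower in HD-het (30.2% and 28.7%) and 13 higher and 12 lower in HD-homo cells against control (22.1% and 21.3%), 15 higher and 14 lower between HD-homo and HD-het (34.0% and 32.3%), and 33 differed among the lines (76.2%).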
